A study of Mus musculus with 3 samples.

Results

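The genes described here are the aminoacyl-tRNA synthetases, the enzymes that join each amino acid to its transfer RNA. The rule takes the listed cytosolic and mitochondrial synthetase genes of the mouse by name and uses no measured value, though the list was drawn up with earlier results of these data known. The list holds 36 genes out of 23282 rows in the deposited tables. It has 18 genes for cytosolic enzymes, 2 genes (Gars and Kars) whose products serve both the cytosol and the mitochondrion, and 16 genes for mitochondrial enzymes. The 20 genes of the first groups are called cytosolic below. All 36 were found under their listed symbols, and all 36 were among the 12770 rows with enough reads to be tested. Each library was from CD4 T cells of C57BL/6 mice (C57BL/6 J in the study's methods), isolated from spleen and lymph nodes, stimulated with anti-CD3 and anti-CD28 antibodies (2 µg/ml each) and cultured for 72 h. The study used female mice aged 6 to 8 weeks unless it stated otherwise, and the labels give no transgene or deletion. The media were complete medium (CM, RPMI with 10% fetal bovine serum), dialyzed medium (DM, RPMI lacking amino acids with 10% dialyzed serum) and DM given 30 µM methionine (DM+Met). The study reports that its DM still held some methionine before any was added. Each medium had 2 libraries. The labels do not say whether these came from separate cultures, while the study describes 2 biologically independent samples, so p-values measure the spread between these libraries, which may be technical. The question addressed here is how the transcripts of the charging enzymes stood when the amino acid supply of the medium was changed and when methionine alone was added.

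Each synthetase recognises its amino acid and the matching transfer RNAs, and the charged product goes to the ribosome. Mitochondria make a few proteins of their own and use a separate set of enzymes, encoded in the nucleus and imported. In the cytosol, several synthetases assemble with the scaffold proteins Aimp1, Aimp2 and Eef1e1 into the multisynthetase complex. When an amino acid runs short, uncharged transfer RNA activates the kinase Gcn2 (gene Eif2ak4), translation of the transcription factor Atf4 increases, and Atf4 is known to bind C/EBP-ATF response elements near many cytosolic synthetase genes. Genes for the mitochondrial enzymes are mostly not known as targets of this pathway. Activated T cells raise protein synthesis as they grow, and so depend on amino acid supply and charging.

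Libraries held 8504742 to 12377285 reads, and a level is given below as the deposited log2 of CPM (reads scaled to library size with TMM factors) plus 1. The 45S ribosomal RNA precursor row Rn45s took 31.0% to 32.9% of reads in CM, 37.2% to 38.3% in DM and 15.5% to 20.1% in DM+Met, and the TMM factors were 0.897 to 0.938 in CM and DM and 1.22 and 1.16 in DM+Met. Pearson's r across the tested genes, which are not independent replicates, was 0.947 and 0.940 between DM library 2 and the DM+Met libraries but 0.919 between DM library 2 and DM library 1. Over the 36 synthetase genes these values were 0.969 and 0.960, and 0.933. The summed level of 6 CD4 T cell markers with a row was 1231 to 1480 CPM in every library. The CD8 T cell markers Cd8a and Cd8b1 summed to 66.4 to 74.2 CPM in CM, 24.4 to 34.2 in DM and 23.4 to 27.8 in DM+Met. The 5 B cell markers summed to 54.0 to 80.7 CPM with Pax5 at 0 reads in all 6 libraries, the 5 myeloid markers to 6.15 to 7.17 CPM in CM, 21.5 to 26.4 in DM and 7.20 to 17.8 in DM+Met, and the 3 natural killer cell markers to 0 to 0.11 CPM in CM, 1.73 to 3.71 in DM and 4.94 to 5.71 in DM+Met. The part of these shifts in the synthetase differences was not tested. In bulk libraries, fewer cells of a type and less RNA per cell cannot be told apart.

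The promoters were read first, because Atf4 is known to bind this response element near many cytosolic synthetase genes. RefSeq promoter windows (GRCm38.p6, 250 bases before to 50 after the gene start) were matched for 27 of the 36 genes. Cars, Hars, Lars, Nars, Rars, Vars, Wars, Hars2 and Pars2 had no window and were not searched. Vars, Cars and Lars, called in DM (below), are among these. They were searched on both strands for TGATGNAA, the core of the C/EBP-ATF response element, whose reverse is TTNCATCA. The word was in the windows of 5 of the 13 cytosolic genes with a window and in 0 of the 14 mitochondrial genes with one. Of all 27025 genes in the promoter table, 4.51% held it. The match nearest the gene start follows for each of the 5 genes, with 11 bases on each side, 5′ to 3′ in the direction of the gene, with the match in capitals, so that the shared core and its differing neighbourhood can be seen.
Aars: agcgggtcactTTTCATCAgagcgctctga
Gars: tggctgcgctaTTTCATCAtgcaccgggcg
Iars: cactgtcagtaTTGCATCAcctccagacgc
Tars: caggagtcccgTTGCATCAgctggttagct
Yars: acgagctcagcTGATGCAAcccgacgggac

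The runs lie at chr8:111033840-111033869 for Aars, chr6:55037960-55037989 for Gars, chr13:49682126-49682155 for Iars and chr4:129189895-129189924 for Yars, all on the plus strand, and at chr15:11399655-11399684 on the minus strand for Tars. With the gene start counted as 0, the matches began at 9 in Aars, -30 in Gars, 7 in Iars, -15 in Tars and 3 in Yars. Iars, Tars and Yars held the form with a C at the open position (TGATGCAA, or TTGCATCA on the other strand), and the matches shown for Aars and Gars were TTTCATCA. A match describes letters in the window and not binding, and the absence of a match says only that the letters are not there. Among these 5 genes, Gars was called lower than in CM under both other media, and the other 4 were called in no comparison with the deposited scaling (values below).

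Transcripts of the cytosolic enzymes were the more abundant group in every library. Because the 3′-end protocol yields a read near the end of a transcript whatever its length, levels were compared between genes with no length correction. The median level of the 20 cytosolic genes was 6.21 to 6.64 across libraries, and that of the 16 mitochondrial genes was 2.93 to 3.71, so these ranges did not overlap. Summed over members, the cytosolic genes gave 1930 to 2299 CPM and the mitochondrial genes 206 to 304 CPM, a ratio of 6.36 to 9.58. The most abundant transcripts were Sars (seryl-tRNA synthetase), which had 8.39 and 8.30 for CM, 7.46 and 8.17 for DM and 8.01 and 7.84 for DM+Met, Eprs, the fused enzyme for glutamate and proline, with 7.71 to 8.16 over all libraries, and Mars, the enzyme for methionine, with 7.69 and 7.95 for CM, 7.85 and 7.41 for DM and 8.02 and 8.12 for DM+Met. Over the 6 libraries, the ranges of these 3 genes overlapped one another. At the low end of the cytosolic genes were Hars (histidine), Yars (tyrosine) and Wars (tryptophan, an interferon-inducible gene), with means over the 6 libraries of 4.99, 4.92 and 4.59.

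**Figure D1:**
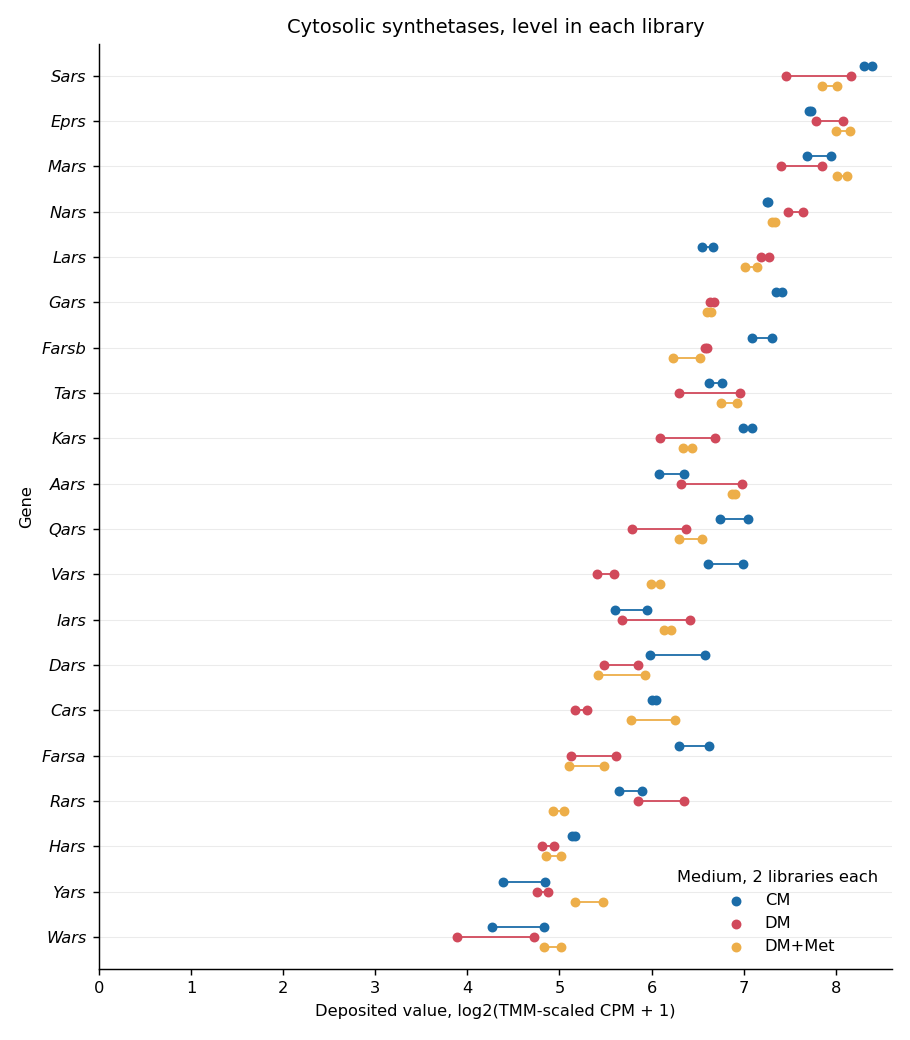
Deposited level (log2 of TMM-scaled CPM plus 1, x axis) of the 20 cytosolic synthetase genes (y axis, ordered by mean level), with 1 point per library, colour for the medium and a line joining the 2 libraries of a medium. Both CM points lie to the right of both DM points for Vars, Farsa, Gars, Cars, Qars, Farsb, Kars, Sars, Dars and Hars. They lie to the left for Lars, Nars and Eprs. Of these, only Vars, Farsa, Gars, Cars, Qars and Lars were called. The share of all rows without overlap was not counted.

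Among the mitochondrial genes, Lars2 (leucine), Tars2 (threonine) and Iars2 (isoleucine) had the highest means, at 5.74, 5.23 and 5.21. Lars2 differed widely between libraries of one medium, with 6.72 and 5.73 for CM, 7.06 and 5.08 for DM and 4.65 and 5.21 for DM+Met. Sars2 (serine) was the least abundant by mean, with read numbers of 0 and 72 for CM, 36 and 44 for DM and 40 and 14 for DM+Met. The 0 in CM library 1 still allows 3 reads, a level of up to 0.42 there. Mars2, the mitochondrial enzyme for methionine, was counted at 5 and 43 reads for CM, 19 and 56 for DM and 52 and 42 for DM+Met. Read numbers this small set the precision of the tests below, and floors and counting intervals here cover counting error only.

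**Figure D2:**
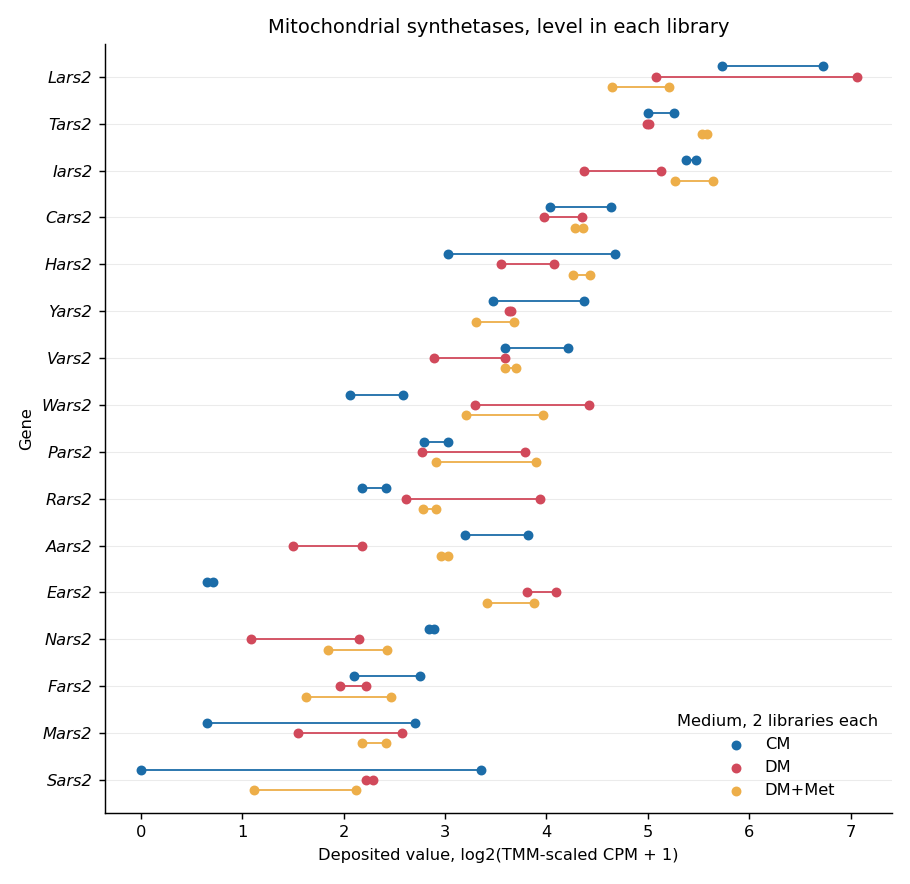
Deposited level (log2 of TMM-scaled CPM plus 1, x axis) of the 16 mitochondrial synthetase genes (y axis, ordered by mean level), with 1 point per library, colour for the medium and a line joining the 2 libraries of a medium. Both CM points of Ears2 lie below 1 and its other 4 points above 3, while the libraries of a medium lie far apart for Sars2, Mars2 and Lars2.

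Each amino acid with an enzyme in both places was then compared within a library, as the cytosolic level minus the mitochondrial one. There were 17 such pairs, with Eprs set against both Ears2 (glutamate) and Pars2 (proline) and both subunits of the phenylalanine enzyme set against Fars2. The cytosolic gene was higher in 100 of the 102 values and in all 6 libraries for 15 pairs, and the differences ran from -0.54 to 8.39 on the log2 scale. The exceptions were Lars against Lars2, at -0.18 in CM library 1, and Wars against Wars2, at -0.54 in DM library 1. In CM the widest mean gaps were 6.67 ± 2.43 (SD, n = 2) for Sars against Sars2, 6.14 ± 1.27 for Mars against Mars2 and 7.04 ± 0.06 for Eprs against Ears2. The last pair differed between media, with 3.98 ± 0.0049 in DM and 4.43 ± 0.21 in DM+Met, and both values of DM and of DM+Met lay below both of CM.

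To see how the nutrient-deprived medium altered these genes, DM was compared with CM. In DM, transcripts of 5 cytosolic enzymes fell (Vars, Farsa, Qars, Cars and Gars), that of the cytosolic leucine enzyme Lars rose, and among the mitochondrial genes Ears2 rose. Thus 7 of the 36 genes were called at a limma adjusted p below 0.05, against 16.9% of all tested rows, with 2 higher (7.8% of all rows) and 5 lower (9.07% of all rows). That is 19.4% of the members, near the share of all rows. By place, 1 cytosolic gene rose, 5 fell and 14 did not pass the test, and 1 mitochondrial gene rose, 0 fell and 15 did not pass. The median log2 fold change was -0.26 over the 20 cytosolic genes, -0.14 over the 16 mitochondrial genes and 0.066 over all rows. In the same comparison the CD8 marker Cd8a was at -1.72 ± 0.47 (SE, limma adjusted p = 0.0323) and the myeloid marker Lyz2 at 2.13 ± 0.59 (SE, limma adjusted p = 0.0355), and their part in these differences was not tested. Lyz2 had 0.34 and 1.92 CPM in CM. The test filter needed 0.946 CPM in 2 libraries, so Lyz2 passed it through DM and DM+Met, where it was high.

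Vars charges valine and lies in the major histocompatibility region (chr17:35000987-35016322, plus strand, mm10). Its level was 6.61 and 6.99 for CM, 5.41 and 5.59 for DM and 5.99 and 6.09 for DM+Met. Both DM values were below every other value, and the log2 fold change in DM was -1.30 (SE 0.22, 95% interval -1.79 to -0.82, limma adjusted p = 0.00428). Farsa encodes the catalytic subunit of the phenylalanine enzyme (chr8:84856989-84869257, plus strand) and had 6.30 and 6.62 for CM, 5.62 and 5.13 for DM and 5.10 and 5.48 for DM+Met. All DM and DM+Met values were below both CM values, and the DM change was -1.08 (SE 0.27, 95% interval -1.68 to -0.49, limma adjusted p = 0.0226). Its partner subunit Farsb had 7.09 and 7.31 for CM, 6.58 and 6.60 for DM and 6.52 and 6.24 for DM+Met, also without overlap between DM and CM, and its change of -0.61 (SE 0.19, 95% interval -1.03 to -0.19, limma adjusted p = 0.0533) did not pass the threshold. The Farsa level minus the Farsb level was negative in each library, at -0.79 and -0.69 for CM, -0.96 and -1.47 for DM and -1.42 and -0.75 for DM+Met.

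Gars, which charges glycine in both compartments (chr6:55038007-55079500, plus strand), had 7.42 and 7.36 for CM, 6.63 and 6.68 for DM and 6.64 and 6.60 for DM+Met. The libraries of each medium were close together and the DM change was -0.73 (SE 0.17, 95% interval -1.11 to -0.36, limma adjusted p = 0.0167). Qars, the cytosolic enzyme for glutamine (chr9:108507706-108515941, plus strand), had 7.04 and 6.74 for CM, 6.37 and 5.79 for DM and 6.54 and 6.30 for DM+Met, with no overlap between CM and DM. Its change was -0.81 (SE 0.24, 95% interval -1.35 to -0.28, limma adjusted p = 0.0438). Cars, for cysteine (chr7:143557230-143600090, minus strand), had 6.00 and 6.05 for CM, 5.17 and 5.30 for DM and 6.26 and 5.78 for DM+Met, with DM below and DM+Met around the CM values, and its DM change was -0.79 (SE 0.24, 95% interval -1.33 to -0.26, limma adjusted p = 0.0488). Lars, for leucine and known also as a leucine sensor upstream of mTORC1, had 6.55 and 6.67 for CM, 7.28 and 7.19 for DM and 7.01 and 7.14 for DM+Met. It was the only cytosolic gene called higher in DM, with both DM values above both CM values, and its change was 0.63 (SE 0.17, 95% interval 0.25 to 1.01, limma adjusted p = 0.0317).

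Of the genes not called, Kars (lysine), the other enzyme of both compartments, stood at -0.65 (limma adjusted p = 0.0726). Sars stood at -0.53 (limma adjusted p = 0.12) and Dars (aspartate) at -0.62 (limma adjusted p = 0.162). On the other side, Aars (alanine) was at 0.44, Rars (arginine) at 0.34, Nars (asparagine) at 0.30, Iars (isoleucine) at 0.27, Eprs at 0.21 and Yars at 0.20, with limma adjusted p-values from 0.221 to 0.684. Tars (threonine), Mars, Wars and Hars lay between -0.28 and -0.06. So 7 cytosolic genes had a positive estimate and 13 a negative one, and most of the estimates could not be told from 0.

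Ears2, the mitochondrial enzyme that charges glutamate (chr7:122037213-122067263, minus strand), had the largest change of all members. Its read numbers were 5 and 5 for CM, 128 and 182 for DM and 163 and 115 for DM+Met, which are levels of 0.65 and 0.71 for CM, 3.81 and 4.09 for DM and 3.87 and 3.41 for DM+Met. The CM values were far below the other 4. At 0.57 and 0.64 CPM they were under the 0.946 CPM of the test filter. Ears2 thus entered the test only through DM and DM+Met, where it was high, and its calls carry that limit. Its log2 fold change in DM was 3.27 (SE 0.52, 95% interval 2.12 to 4.42, limma adjusted p = 0.00326). The added 1 shrinks the log2 change of a gene with few reads, and the ratio of summed CPM was 24.3 with an exact 95% counting interval of 13.1 to 51.3. Wars2 (tryptophan) had 2.07 and 2.58 for CM, 4.42 and 3.30 for DM and 3.97 and 3.21 for DM+Met, again with CM below all other values, but the change of 1.53 (SE 0.56, 95% interval 0.29 to 2.78, limma adjusted p = 0.0876) did not pass. Aars2 (alanine) had 3.82 and 3.20 for CM, 1.50 and 2.18 for DM and 2.96 and 3.02 for DM+Met, and Nars2 (asparagine) 2.84 and 2.89 for CM, 1.08 and 2.15 for DM and 1.85 and 2.42 for DM+Met. Both had DM below CM in each library, at -1.67 ± 0.54 (SE, limma adjusted p = 0.0615) and -1.24 ± 0.60 (SE, limma adjusted p = 0.181). The other mitochondrial genes lay between -0.68 for Iars2 and 0.97 for Rars2, none of them called.

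**Figure D3:**
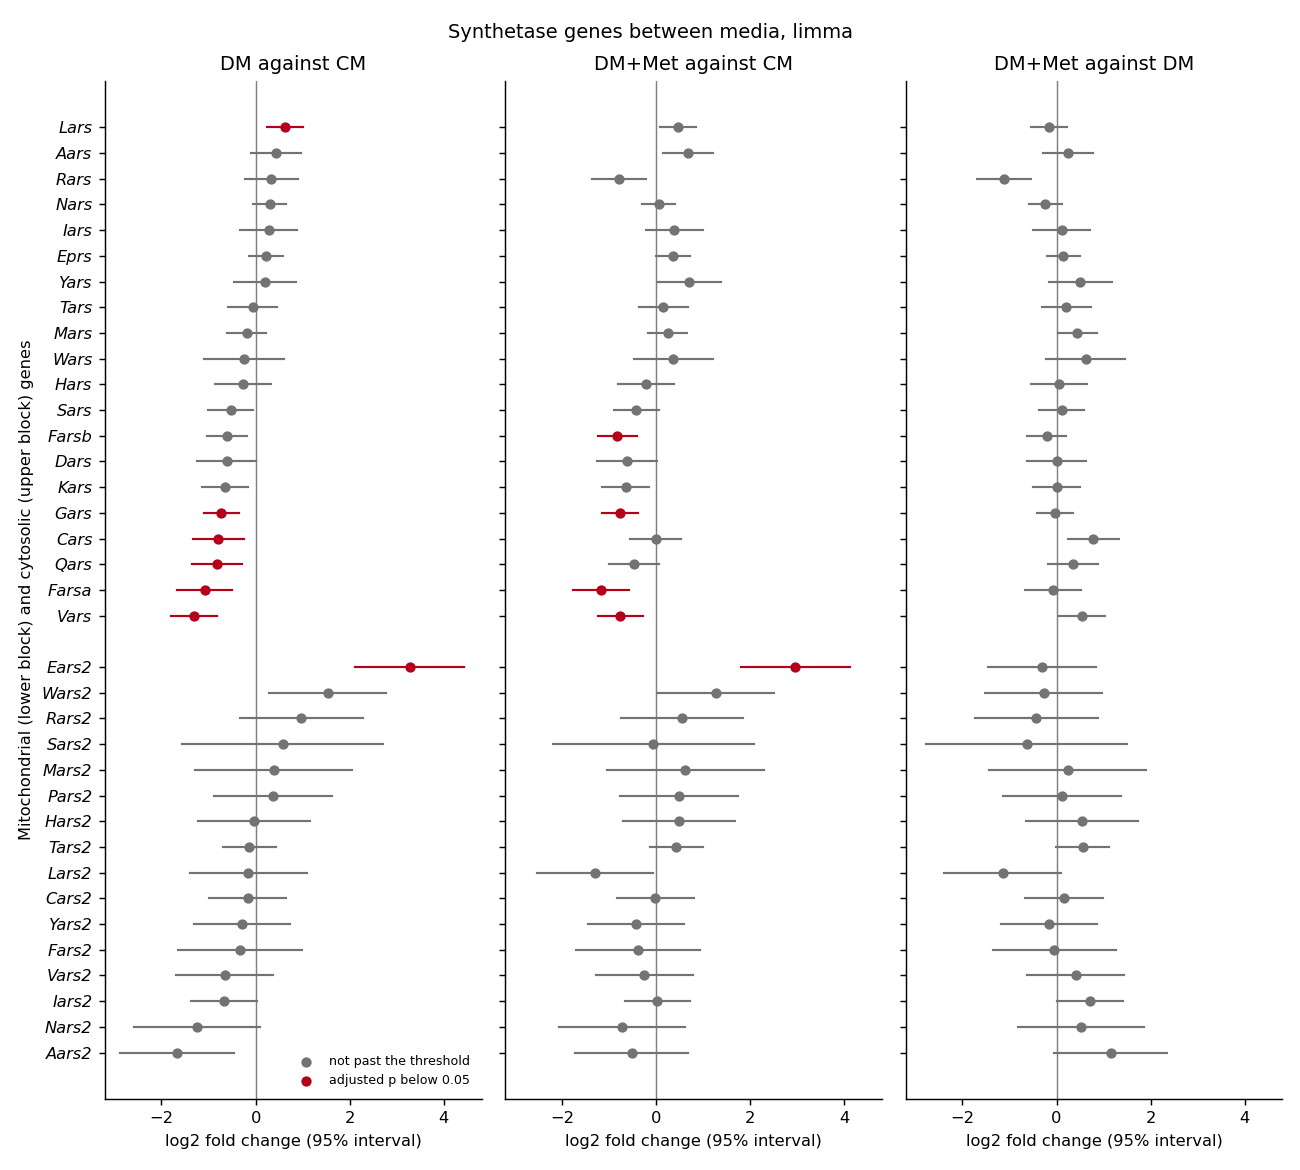
Log2 fold change (x axis, point) with its 95% interval (line) for each synthetase gene (y axis, cytosolic above and mitochondrial below, ordered by DM against CM) in the 3 comparisons, from limma, in red where the adjusted p is below 0.05. DM against CM has 7 red genes, DM+Met against CM 5 and DM+Met against DM 0, and the intervals of the mitochondrial genes are the wider ones.

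The firmness of these calls differed between genes. Of the 10 settings other than leaving out 1 library, Gars and Farsa were called in 8, Lars in 7, Qars in 4 and Cars in 2. Ears2 was not tested, in any comparison, under the setting that needed at least 10 reads in every library, so 9 other settings remain for it. Except with no filter, these fits kept a filter that Ears2 passed only through DM and DM+Met, where it was high. Its repeated calls there do not lift that limit. Ears2 was called in 6 of 6 fits that left out 1 library (3.13 to 3.41) and in 9 of 9 other settings, and Vars in 5 of 6 and 10 of 10, losing the call without DM library 1 (change -1.21). Gars kept its call without either DM library and lost it without any of the other 4 (-0.77 to -0.70), while Cars (-0.86 to -0.73), Lars (0.57 to 0.69), Qars (-1.10 to -0.52) and Farsa (-1.33 to -0.84) lost theirs without any 1 of the 6 libraries, with no change of sign. Kars was called without DM library 1 (-0.95) and Sars without DM library 2 (-0.88).

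The cytosolic genes were also set out by structure and by amino acid. Of the 8 synthetases of the multisynthetase complex (Eprs, Iars, Lars, Mars, Qars, Rars, Kars and Dars), 1 rose and 1 fell in DM, and the median log2 fold change was 0.01. Of the 12 outside it, 0 rose and 4 fell, with a median of -0.40. Class I and class II synthetases differ in the fold of their catalytic domain. Of the 9 class I genes, 1 rose and 3 fell (median -0.19), and of the 10 class II genes, 0 rose and 2 fell (median -0.57), leaving aside Eprs, which holds both folds. Of the 10 genes for amino acids that mammals cannot make, Lars rose and Vars and Farsa fell, and of the 10 for other amino acids, 0 rose and Cars, Gars and Qars fell. The medians were -0.26 and -0.17. The shares of all rows in this comparison, 7.8% higher and 9.07% lower, stand beside these counts, and no difference between the groups was tested.

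DM+Met was compared with CM next, with the same CM libraries as above, so the estimates of the comparisons are not independent. With methionine added to DM, 4 cytosolic genes were lower than in CM (Farsa, Farsb, Gars and Vars) and Ears2 was higher. These 5 called genes are 13.9% of the members, against 15.3% of all tested rows, with 1 higher (6.92% of all rows) and 4 lower (8.36% of all rows). Their log2 fold changes were -1.17 ± 0.27 (SE, limma adjusted p = 0.0166) for Farsa, -0.82 ± 0.19 (SE, limma adjusted p = 0.0173) for Farsb, -0.77 ± 0.17 (SE, limma adjusted p = 0.0135) for Gars, -0.76 ± 0.22 (SE, limma adjusted p = 0.043) for Vars and 2.96 ± 0.52 (SE, limma adjusted p = 0.00472) for Ears2. For Ears2 the ratio of summed CPM was 19.3 (exact 95% counting interval 10.4 to 40.8). The median was -0.11 over the cytosolic genes, 0.0078 over the mitochondrial genes and 0.061 over all rows. In the same comparison Cd8a was at -1.76 ± 0.47 (SE, limma adjusted p = 0.0317), and the natural killer cell marker Klrb1c, with 0 reads in both CM libraries and 45 and 34 in DM+Met, was called higher (limma adjusted p = 0.0294). Klrb1c entered the test only through DM and DM+Met, where it was high, and its call carries that limit. The part of these markers in the synthetase differences was not tested.

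Of the genes called lower in DM but not in DM+Met, Cars stood at -0.01 against CM (limma adjusted p = 0.994) and Qars at -0.47 (limma adjusted p = 0.219). Lars, called higher in DM, stood at 0.47 (limma adjusted p = 0.0922). The test of DM+Met against DM called none of these 3 genes (below). Rars, with 5.90 and 5.64 for CM, 5.85 and 6.36 for DM and 4.93 and 5.04 for DM+Met, had both DM+Met values below all others, and its change against CM was -0.79 (SE 0.26, 95% interval -1.35 to -0.22, limma adjusted p = 0.0659). Aars had 6.35 and 6.08 for CM, 6.98 and 6.32 for DM and 6.91 and 6.87 for DM+Met, with both DM+Met values above both of CM, and its change of 0.68 (SE 0.24, 95% interval 0.15 to 1.21, limma adjusted p = 0.0848) did not pass the threshold either. Of the 10 settings other than leaving out 1 library, Farsa, Farsb and Gars were called in 8 and Vars in 4. For Ears2, the limit of the filter given above holds here too. Ears2 was called in 4 of 6 fits that left out 1 library, losing the call without either DM+Met library (2.73 to 3.19), and in 8 of 9 other settings, the exception being limma-voom on the recovered reads (4.12, limma-voom adjusted p = 0.0603). Farsa and Gars kept theirs only without a DM library (-1.36 to -0.97 and -0.80 to -0.73), Farsb only without DM library 1 (-0.96 to -0.68), and Vars lost its call without any 1 of the 6 libraries (-0.95 to -0.57).

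To ask what methionine changed, DM+Met was compared with DM. None of the 36 synthetase genes was called by limma in this comparison, where 7 of all 12770 rows were (0.0548%). At an unadjusted p below 0.05 there were 5 genes, or 13.9% of the members, against 9.69% of all rows. The count by limma-voom on the recovered reads was also 0. The 5 genes were Cars, Mars, Vars and Iars2 with positive estimates and Rars with a negative one. The log2 change was 0.79 (SE 0.24, 95% interval 0.25 to 1.32, limma adjusted p = 0.348) for Cars, 0.54 (SE 0.22, 95% interval 0.06 to 1.03, limma adjusted p = 0.458) for Vars, 0.70 (SE 0.31, 95% interval 0.01 to 1.40, limma adjusted p = 0.512) for Iars2 and -1.12 (SE 0.26, 95% interval -1.69 to -0.55, limma adjusted p = 0.232) for Rars. Per-library levels of Cars, Vars and Rars are above, and Iars2 had 4.37 and 5.13 for DM and 5.27 and 5.64 for DM+Met. DM and DM+Met values did not overlap in these genes. They were picked by p-value, so this was nearly given and adds no support. Values also did not overlap in Lars, Nars, Farsb and Sars2, which were lower in DM+Met, and in Wars, Yars, Aars2, Hars2, Tars2 and Vars2, which were higher. The share of all rows without overlap was not counted, so this is not read as a result.

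Mars, the enzyme that charges the amino acid added, had 7.69 and 7.95 for CM, 7.85 and 7.41 for DM and 8.02 and 8.12 for DM+Met. Both DM+Met values were above the 4 others, and the change from DM was 0.44 (SE 0.19, 95% interval 0.02 to 0.85, limma adjusted p = 0.484), which does not pass the threshold over all rows. Its change in DM against CM was -0.19 (limma adjusted p = 0.531). Without DM library 2 the change from DM was 0.22, and without DM library 1 it was 0.66. Mars2 had 0.65 and 2.70 for CM, 1.55 and 2.57 for DM and 2.42 and 2.18 for DM+Met, and its change from DM was 0.24 (SE 0.75, 95% interval -1.43 to 1.91, limma adjusted p = 0.959), an interval wide enough to hold a log2 change of 1 in either direction.

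How much the missing calls say depends on the width of the intervals. For DM+Met against DM, the 95% interval lay within a log2 change of 1 in either direction for 15 of the 20 cytosolic genes but for 1 of the 16 mitochondrial genes. The exceptions among the cytosolic genes included Rars, whose interval ran from -1.69 to -0.55. The distance from an estimate to the end of its interval had a median of 0.53 over cytosolic genes, 1.22 over mitochondrial genes and 0.98 over all rows. In each mitochondrial gene this distance was larger than the change of 0.54 estimated for Vars in DM+Met against DM. An estimate of that size could not have been told from 0 in them with these libraries. The standard error was 0.16 to 0.38 in cytosolic genes and 0.25 to 0.96 in mitochondrial ones, and it was largest for Sars2 and Mars2, the genes with the lowest mean levels.

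**Figure D4:**
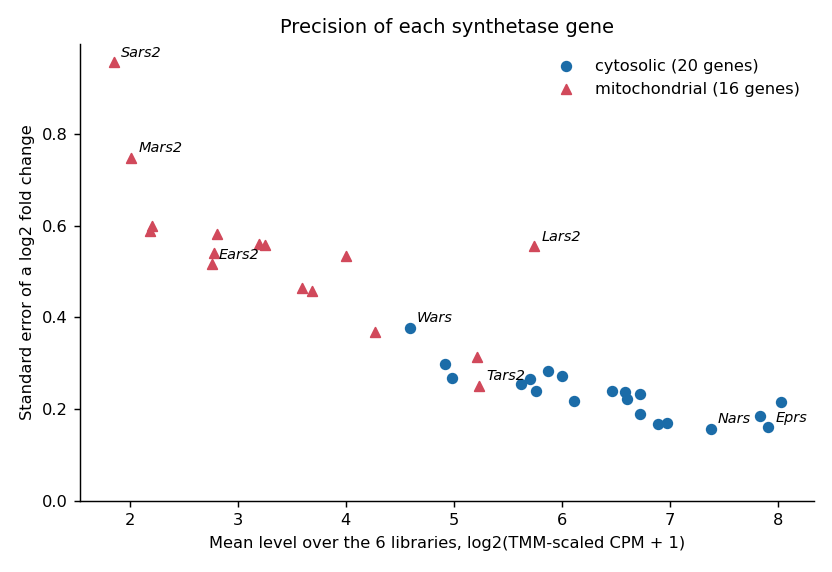
Standard error of a log2 fold change from limma (y axis, the same in each comparison) against the mean level over the 6 libraries (x axis, log2 of TMM-scaled CPM plus 1), with 1 point per synthetase gene. Standard errors go up as levels go down, and Lars2, whose libraries differed within a medium, lies above the other genes of its level.

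The scaling of the libraries matters for DM+Met, in which Rn45s took fewer reads. When the recovered reads were divided by library totals, the median of all rows in DM+Met against CM moved from 0.061 to 0.41, and the share of calls that were higher moved from 45.3% to 76.3% (57.4% with totals that leave out Rn45s). Under library totals 7 members were called higher and 0 lower. Of all 12770 rows, 2701 were called there, 2060 of them higher. The higher ones were Yars at 1.09, Aars at 1.07, Lars at 0.86, Tars2 at 0.81, Eprs at 0.75, Mars at 0.65 and Ears2 at 3.25. Farsa (-0.78), Farsb (-0.43), Gars (-0.37) and Vars (-0.37) kept a negative estimate without passing the test. Relative to all rows, the cytosolic median was lower by both scalings, with a difference of -0.17 under the deposited scaling and -0.14 under library totals. For DM+Met against DM the median of all rows moved from 0.009 to 0.34 and the share of higher calls from 71.4% to 92.7%, and 0 members were called under either. For DM against CM the median moved by less than 0.1 with totals (0.066 to 0.091), and leaving out Rn45s gave 0.21 and a share of higher calls of 59.6% in place of 46.2%. Vars, Gars, Farsa, Lars and Ears2 were the 5 members called there under library totals and under totals without Rn45s. Of all 12770 rows, 2053 and 2215 were called. The calls of Cars and Qars were lost under both of these scalings (-0.76 and -0.78 under library totals).

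**Figure D5:**
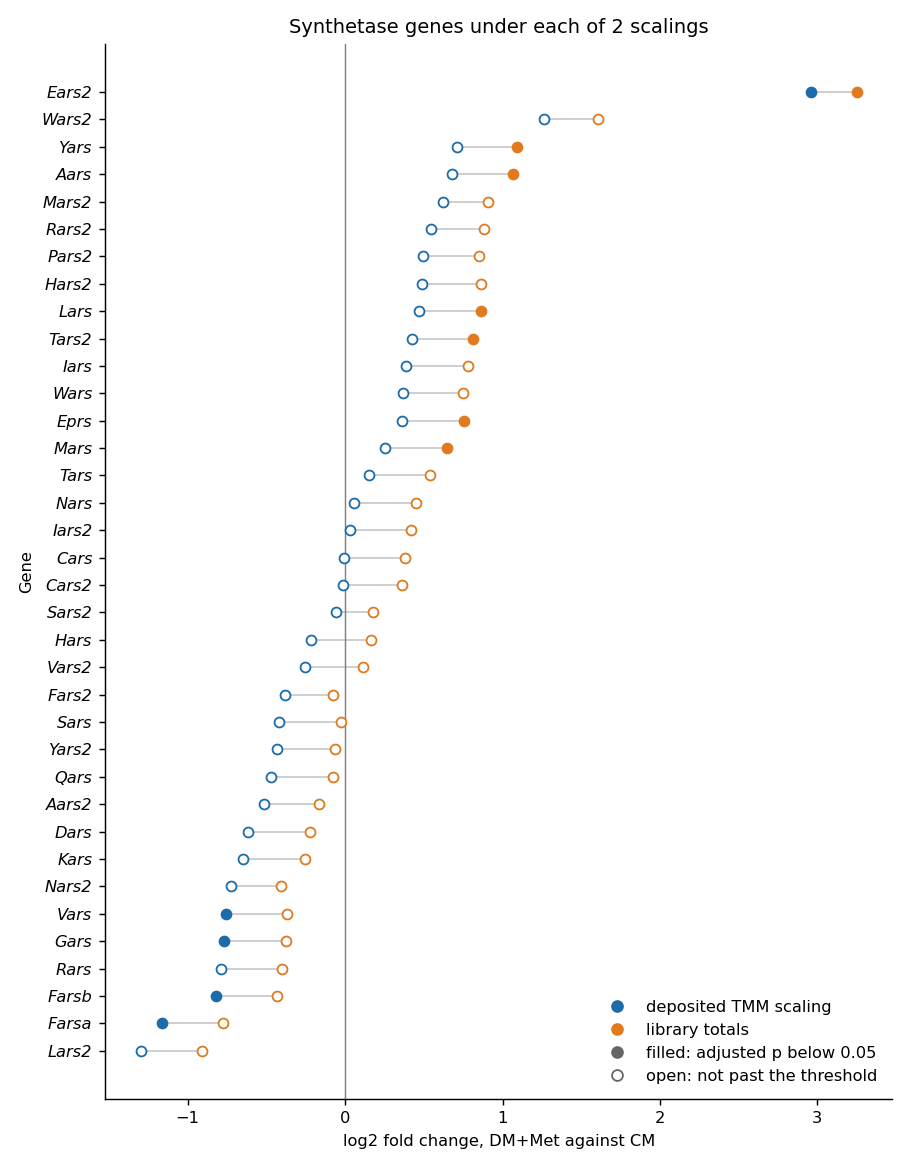
Log2 fold change in DM+Met against CM (x axis) of each synthetase gene (y axis, ordered by the deposited scaling) under the deposited TMM scaling (blue) and under library totals (orange), filled where the limma adjusted p is below 0.05. Each gene moves to the right under library totals, the filled blue points at the bottom become open orange ones, and Ears2 is filled under both.

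Proteins that work beside the synthetases were followed from lists set by function. Beside the counts below, 7.8% of all rows were called higher and 9.07% lower in DM against CM, and 6.92% higher and 8.36% lower in DM+Met against CM. Of the 3 scaffold genes of the multisynthetase complex, Aimp1 fell against CM under both other media, and 2 did not pass. Aimp1 had 7.39 and 7.49 for CM, 6.69 and 6.87 for DM and 6.55 and 6.76 for DM+Met, a change of -0.66 ± 0.18 (SE, limma adjusted p = 0.0311) in DM and -0.78 ± 0.18 (SE, limma adjusted p = 0.0162) in DM+Met. Of 4 genes for mitochondrial charging, 1 rose in both media. This was Gatc, a subunit of the amidotransferase that turns glutamate on mitochondrial glutamine transfer RNA into glutamine, and thus acts on a product of Ears2. Gatc had 2.21 and 2.16 for CM, 3.73 and 4.19 for DM and 3.62 and 3.96 for DM+Met, with a change of 1.77 ± 0.46 (SE, limma adjusted p = 0.0284) in DM and 1.61 ± 0.46 (SE, limma adjusted p = 0.044) in DM+Met. The other subunits stood at 0.68 (Gatb) and -2.08 (Qrsl1) in DM and were not called. Under library totals the Gatc call in DM+Met against CM held (1.95) and that of Aimp1 did not (-0.39). When 1 library was left out, Gatc was called in no fit of either comparison, and Aimp1 only for DM+Met against CM without a DM library. Gatc was also not called in either comparison with no filter, by limma-voom or with only the media compared. Without DM library 2, the 4 genes for mitochondrial charging had Mtfmt and Qrsl1 called lower in DM against CM.

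Elongation factor 1 delivers charged transfer RNA to the ribosome and exchanges its nucleotide. Of its 4 cytosolic genes and 2 mitochondrial counterparts, 3 fell between CM and DM, and 4 between CM and DM+Met. Eef1a1, which carries the transfer RNA, had 11.73 and 11.57 for CM, 11.16 and 11.23 for DM and 10.92 and 10.83 for DM+Met, and changed by -0.46 ± 0.14 (SE, limma adjusted p = 0.0439) in DM. Eef1g fell by 0.81 and Eef1d by 0.92 on the log2 scale in DM (limma adjusted p = 0.00408 and 0.0258). Against CM, DM+Met had changes of -0.78 for Eef1a1, -0.63 for Eef1b2, -0.94 for Eef1d and -0.63 for Eef1g, with limma adjusted p-values of 0.00473 to 0.0237. Of 7 genes for maturation and export of transfer RNA, Nsun2, a cytosine methyltransferase of transfer RNA, fell in both media, by estimates of -0.83 ± 0.18 (SE, limma adjusted p = 0.0146) in DM and -0.80 ± 0.18 (SE, limma adjusted p = 0.0165) in DM+Met, and 6 did not pass. Under library totals, 0 of the 6 elongation factor genes were called in DM+Met against CM (Eef1a1 at -0.38), nor was Nsun2 (-0.41), while Ssb and Xpot of the same list were called higher (0.75 and 1.06). The Eef1a1 call in DM was lost under library totals (limma adjusted p = 0.0678), under totals without Rn45s, with no filter, with a pseudocount of 0.1, with the replicate block, without the intensity trend and with only the media compared. Leaving out 1 library gave 0 to 2 elongation factor genes lower in DM and 0 to 4 in DM+Met, and 0 or 1 for Nsun2. No gene of these lists was called in DM+Met against DM.

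The sensor of uncharged transfer RNA and the Atf4 branch behind it made up a list of 14 genes, of which 0 rose and 5 fell between CM and DM, and 0 rose and 4 fell between CM and DM+Met. Of all rows, 9.07% were lower in DM and 8.36% in DM+Met. The median log2 fold change was -0.87 in DM and -0.30 in DM+Met. Atf4 itself, whose control is known to act largely on translation, had 8.84 and 9.22 for CM, 8.03 and 8.20 for DM and 8.13 and 8.05 for DM+Met, with a change of -0.92 ± 0.17 (SE, limma adjusted p = 0.00593) in DM. Some known targets of Atf4 also fell in DM. They were Asns (asparagine synthetase, -1.65, limma adjusted p = 0.0202), Psat1 (serine synthesis, -1.09, limma adjusted p = 0.00591), Phgdh (serine synthesis, -0.83, limma adjusted p = 0.028) and Eif4ebp1 (a translation repressor, -1.19, limma adjusted p = 0.0114). In DM+Met against CM, Atf4 (-0.94), Asns (-1.41), Psat1 (-1.09) and Eif4ebp1 (-1.90) were called lower, and Phgdh stood at -0.14 (limma adjusted p = 0.714). The other 9 genes of the list, Ddit3, Trib3, Chac1, Sesn2 and the sensor kinase Eif2ak4 among them, were not called in any comparison. Under library totals, Atf4, Psat1 and Eif4ebp1 were still called lower in DM+Met against CM (-0.55, -0.70 and -1.51), Asns was not (-1.04), and Ddit3 and Trib3 were called higher (0.68 and 1.12). When 1 library was left out, 1 or 2 genes of the list were called lower in DM and 0 to 3 in DM+Met. Without the intensity trend these counts were 2 and 1, and with only the media compared 3 and 3. Beside these counts, the CD8 markers were lower and the myeloid and natural killer cell markers higher in DM than in CM (values above), and their part was not tested.

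Some rows may hold reads of a neighbour, since how reads were assigned to strands is not given in the sources used here. In the GENCODE M21 annotation (mm10), exons of Aars overlap those of Exosc6 on the same strand, and the last 500 bases of Aars share 451 words of 50 bases with it. Exosc6 was called in no comparison. Iars shares 124 such words with the processed pseudogene Gm4849. In the reverse orientation, the end of Iars2 shares 451 words with Rab3gap2, whose exons it overlaps by up to 2034 bases. Cars2 shares 330 with Naxd, Farsb 201 with Sgpp2, Cars 126 with Gm15580 and Mars 19 with Ddit3. Exons of the opposite strand overlap Farsb (Sgpp2), Cars (the pseudogene Gm15580), Ears2 (Ubfd1), Mars (Ddit3), Hars and Hars2 (each other), Yars (C77080), Cars2 (Naxd), Fars2 (Lyrm4 and Nrn1), Iars2 (Rab3gap2), Nars2 and Vars2 (noncoding genes). Of the partners with a row, Sgpp2 and Nrn1 were called higher in DM (2.36 and 3.22, limma adjusted p = 0.0399 and 0.00524), while Farsb and Fars2 stood at -0.61 and -0.34. Sgpp2 had 0.11 and 0.26 CPM in CM, under the test filter. It entered the test only through DM and DM+Met, and its call carries that limit. Ubfd1, which overlaps Ears2 by 89 bases, stood at 0.47 (limma adjusted p = 0.587). Ddit3, a stress-response transcription factor, overlaps Mars by 68 bases and had 7.84 and 8.02 for CM, 7.89 and 7.52 for DM and 8.16 and 8.28 for DM+Met. Both DM+Met values of Ddit3 were above its 4 others, as they were for Mars. Its change from DM was 0.51 ± 0.17 (SE, limma adjusted p = 0.39), beside 0.44 for Mars, and under library totals both were called higher in DM+Met against CM (0.68 and 0.65). Whether reads are shared between these rows was not tested. C77080, Lyrm4 and Rab3gap2 were called in no comparison, and Nrn1 was also higher in DM+Met than in CM (2.20, limma adjusted p = 0.0282).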

How the data were processed

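Transcripts were measured in 6 libraries of mouse CD4 T cells (CM, DM and DM+Met, 2 each) made with a 3′-end kit from 500 ng of total RNA. As deposited, each value is the log2 of a TMM-scaled CPM plus 1, made by the authors for 23282 rows, 44 of them further rows of a repeated symbol. Per the submitters' processing notes the build was mm10 and the tools included Bowtie2 and bedtools, with versions, annotation and strand handling not given in the sources used here. Values moved in equal steps, so reads were recovered, and at up to 300 reads at least 99.776% of values per library lay within 0.1 of a whole read. Depth was 8504742 to 12377285 reads, and a floor of 3 reads was a log2 value of 0.323 to 0.469. The read tables of 2 libraries of a medium differed by more than sampling noise (chi-square per degree of freedom 18.2 to 35.9), so none was counted as a copy.

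Rows with at least 2 libraries at 0.946 CPM (10 reads at the median depth) and 15 reads in all were tested, 12770 in number. The deposited log2 values of the 3 media entered one limma fit (limma 3.58.1, R 4.3.3; lmFit, eBayes with an intensity trend, 6.87 prior degrees of freedom) without covariates, two-sided, with Benjamini-Hochberg adjustment over all tested rows and a threshold of 0.05. Every adjusted p comes from this fit unless stated. A fold change is a difference of log2(CPM + 1), so for a gene with few reads it comes out smaller than the true ratio. Alternatives changed the scaling, the filter, the pseudocount, the test, the libraries in the fit and the block.

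The members and the lists were chosen with earlier results of these data known. Named genes are the 36 members and each gene of the 5 companion lists that was called in any comparison. Others were named after their values were seen (the overlapping neighbours, and list genes that did not pass). A further gene under this rule and a further promoter match are not reported here. Coordinates are from GENCODE M21 (mm10) and promoters from RefSeq (GRCm38.p6). The file numbers were checked as pairs: library differences of 2 media correlated at -0.030 to 0.0048 across genes, so the numbers were not used as pairs.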

Additional observations from a re-analysis of the deposited data

How the results depend on the processing

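Of 1719 estimates of single synthetase genes under 16 alternatives (6 of them leaving out 1 library), 1617 kept their side of the threshold, 84 lost a call and 18 gained one. The sign differed in 79 of the 1617, over 44 pairs of gene and comparison, each of them uncalled in both fits, and 0 called values changed sign. Counts of synthetase genes called, DM against CM, were 3 without an intensity trend, 2 with only the media compared and 2 to 4 without 1 library, in place of 7. Between DM+Met and CM they were 1 without the trend and 0 to 5 without 1 library (0 without either DM+Met library), in place of 5. The count for DM+Met against DM was 0 under each alternative. Counts over all rows for DM against CM were 1329 without the trend, 795 with only the media compared and 541 to 1061 without 1 library, in place of 2154. Between DM+Met and CM they were 1265 with no filter, 944 without the trend and 268 to 1622 without 1 library, in place of 1952. For DM+Met against DM, in place of 7, they were 55 (library totals), 2 (unfiltered), 27 (a minimum of 10 reads per library), 13 (pseudocount 5), 21 (limma-voom), 0 without the trend, 0 with only the media compared and 0 when any 1 library was left out. The cytosolic median for DM against CM was -0.11 under totals without Rn45s and -0.37 to -0.26 without 1 library. For DM+Met against DM it was 0.48 under totals and -0.011 to 0.21 without 1 library, the negative value without DM library 2, and for DM+Met against CM it was 0.27 under totals and 0.0060 without Rn45s. The mitochondrial median for DM+Met against DM was 0.48 under totals and -0.086 to 0.17 without 1 library, again negative without DM library 2. Between DM+Met and CM it was 0.39 under totals, 0.23 with a pseudocount of 0.1, 0.23 by limma-voom and -0.001 to 0.19 without 1 library. Apart from alternatives that test fewer libraries, the cause was not tested. With the replicate block, 5 synthetase genes were called for DM against CM, 0 for DM+Met against DM and 5 for DM+Met against CM, and 1947, 7 and 1797 rows in all. Cars and Lars lost their DM against CM call under this block, and the shared numbers are not a pairing in the labels. Depth limits the mitochondrial genes most, with a median of 58.5 to 124.5 reads per library against 772.5 to 1022.5 for the cytosolic genes.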
